A study of Mus musculus with 12 samples.

Results

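The contacts described here join a captured promoter to a distal bin of 2 kb that was open in fetal haematopoietic stem cells (HSCs), closed in adult HSCs (no open-chromatin annotation), and free of every promoter and enhancer mark in both populations. They were chosen from the authors' deposited table of significant promoter Capture-C contacts by its 0 or 1 annotations: open chromatin (ATAC) 1 in fetal cells and 0 in adult cells, and 0 in all 10 columns for active or bivalent promoters and active, primed or poised enhancers. Of 88475 contacts within a chromosome (89545 listed in all), 4354 met this rule. They comprised 2481 contacts in the first batch of captured promoters and 1873 in the second, and reached 3516 distinct bins from promoters of 1697 genes. The counts, the calls, the distances and the expression values described below were not used to choose them.

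Promoter Capture-C ligates the ends of cross-linked chromatin after a restriction digest and enriches the products of chosen promoters with probes, so that sequencing counts which distal fragments each promoter touched. Fetal HSCs came from the liver at embryonic day 14.5 and adult HSCs from the bone marrow at 6 to 8 weeks, both from B6129SF1 mice with no engineered allele or treatment named in the labels, and both sorted as Lin-Sca1+cKit+CD135-. Each population had 4 libraries, 2 in each of 2 batches that captured nearly separate promoter sets. The deposited table holds 1 value per population and batch, so that no difference between populations has a replicate check and no test across libraries was possible. Whether a value sums or averages its 2 libraries is not stated. The 4 samples of the HPC7 cell line were not analysed here. All fetal cells came from liver and all adult cells from marrow, so that age and organ cannot be told apart. The labels do not say how many animals were pooled for a sort.

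Open chromatin marks DNA from which nucleosomes have been cleared, usually by transcription factors, and an ATAC experiment reads it by cutting accessible DNA with a transposase. Active enhancers usually also carry methylated and acetylated histones, so an open site without such marks can be a structural site, a site bound by a repressor, or an element whose marks lie below detection. HSCs of the fetal liver divide and expand, whereas most adult marrow HSCs rest, and the populations use partly different gene programs.

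Letters are shown for a pair of promoters per batch that had the most such bins among those with an unnumbered name and 1 start site in RefSeq, to let a reader see what kind of promoter sits at the other end. Each runs over the 250 bases upstream of the RefSeq start in GRCm38.p6, 5′ to 3′ on the gene's strand. Capitals mark GATAA, the core bound by GATA factors, and CAGCTG or CAGGTG, E-box forms bound by basic helix-loop-helix factors, on either strand.
Mcam: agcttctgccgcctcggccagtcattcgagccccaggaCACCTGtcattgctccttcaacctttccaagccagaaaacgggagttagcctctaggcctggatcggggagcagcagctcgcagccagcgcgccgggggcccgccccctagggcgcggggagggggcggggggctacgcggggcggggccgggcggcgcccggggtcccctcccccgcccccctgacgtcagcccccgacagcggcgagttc
Spn: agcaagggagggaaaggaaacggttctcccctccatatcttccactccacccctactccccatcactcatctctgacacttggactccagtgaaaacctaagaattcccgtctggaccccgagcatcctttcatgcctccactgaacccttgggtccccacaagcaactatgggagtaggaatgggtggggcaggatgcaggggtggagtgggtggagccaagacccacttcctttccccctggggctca
Rpusd2: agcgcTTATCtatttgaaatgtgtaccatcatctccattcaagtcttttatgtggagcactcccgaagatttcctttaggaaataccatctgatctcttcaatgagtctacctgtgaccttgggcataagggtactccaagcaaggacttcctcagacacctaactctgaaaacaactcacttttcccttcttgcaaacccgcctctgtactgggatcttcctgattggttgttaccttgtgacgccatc
Nek2: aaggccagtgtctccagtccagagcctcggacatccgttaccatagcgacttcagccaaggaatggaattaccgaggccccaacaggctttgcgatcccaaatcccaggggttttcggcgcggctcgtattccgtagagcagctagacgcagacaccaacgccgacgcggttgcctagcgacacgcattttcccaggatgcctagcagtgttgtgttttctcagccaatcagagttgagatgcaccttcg
The windows are chr9:44134408-44134657 (plus strand) for Mcam, chr7:127137824-127138073 (minus strand) for Spn, chr2:119034540-119034789 (plus strand) for Rpusd2 and chr1:191821223-191821472 (plus strand) for Nek2. Mcam, which encodes the adhesion molecule CD146, had 25 CG dinucleotides and a GC content of 73.6%, against 3 CG and 56.8% for Spn, which encodes the leukocyte sialoglycoprotein CD43. Rpusd2, named for a pseudouridine synthase domain, had 4 CG and 44.4%, and Nek2, a mitotic kinase of the centrosome, had 18 CG and 56.0%. The captured fragments are placed in mm9 and were not compared with these GRCm38 starts.

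For the motif count, 671 of 827 genes with such a contact in the first batch and 639 of 794 in the second were matched to a RefSeq promoter. GATAA or its reverse complement TTATC lay in the 250 bases of 101 of these 671 promoters (15.1%, exact 95% interval 12.4 to 18) and 85 of these 639 (13.3%, 10.8 to 16.2). The shares over all captured promoters were 13.9% and 14.5%, and over all 27025 RefSeq promoters of the same length 23.0%. CAGCTG was found in 10.7% and 10.6% of the promoters with such a contact, against 10.4% and 11.5% of all captured and 12.8% of all RefSeq promoters. CAGGTG, or CACCTG on the other strand, was found in 12.2% and 16.3%, against 12% and 14.7% of all captured and 17.1% of all RefSeq promoters. For all 3 motifs the intervals of promoters with and of all captured promoters overlapped, the former being part of the latter. The bins themselves are given in mm9 and their sequence was not analysed here.

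The contacts made up 5.03% of the contacts within a chromosome in the first batch and 4.78% in the second. At least 1 was found at 1031 of 1939 promoters captured first (53.2%) and, for the second batch, 804 of 1814 (44.3%). Such a promoter had a median of 2, up to 13 in the first batch and 9 in the second. Chromosome 1 had the highest share of its contacts at these bins (232 of 4194, 5.53%) and chromosome 12 the lowest (91 of 2607, 3.49%). Most bins stood alone: of 2067 runs of neighbouring bins in the first batch 82.6% were a single bin, and of 1511 in the second 78.7%, with the longest runs spanning 7 and 6 bins. Another bin with a promoter or enhancer mark was listed within 4 kb of 659 (26.6%) and 686 (36.6%) of the contacts. A captured fragment lay within 25 and 29 of the bins.

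A contact counted as called in a population where the authors' score was above 0. Of the first-batch contacts, 1047 of 2481 contacts at fetal-open bins were called in fetal cells only (42.2%, exact 95% interval 40.2 to 44.2), where the share over all contacts within a chromosome was 39.0%. A further 870 were called in adult cells only (35.1%, against 35.7% of all), although these bins had no open-chromatin annotation in adult cells, and 564 in both (22.7%, against 25.3%). In the second batch 782 of 1873 were called in fetal cells only (41.8%, 39.5 to 44.0, against 34.0% of all), 525 in adult cells only (28.0%, against 29.3%) and 566 in both (30.2%, against 36.7%). Fetal calls thus outnumbered adult calls in both batches, and made up 54.6% and 59.8% of the contacts called in 1 population, where the shares over all contacts were 52.1% and 53.7%. With neighbouring bins merged into runs the gap to all contacts shrank: the shares were 43.0% (40.8 to 45.1, all 41.8%) and 42.9% (40.4 to 45.4, all 40.6%), within counting error of all contacts in both batches. These intervals cover counting error only. Contacts of a promoter and neighbouring bins share libraries and ligation products and are not independent.

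The nearest comparison is with other unmarked bins, grouped by open chromatin, which also differed somewhat in distance: second-batch medians were 87.9 kb at fetal-open bins, 92.8 kb at adult-open bins, 99.6 kb at bins open in both and 86.8 kb at closed bins. Unmarked bins open in adult cells only were called in fetal cells only at 42.0% of 1909 contacts in the first batch and 37.5% of 1468 in the second. The fetal-open bins exceeded them by 0.189 percentage points in the first batch (Newcombe 95% interval -2.76 to 3.13), where no difference was detectable, and by 4.22 points in the second (0.873 to 7.54). Unmarked bins closed in both populations, by far the most common kind, were called in fetal cells only at 45.9% of 19239 and 40.6% of 14226 contacts. Against these closed bins the fetal-open bins were lower by 3.69 points in the first batch (difference -3.69, interval -5.75 to -1.61) and differed by 1.16 points in the second (-1.19 to 3.55). Unmarked bins open in both populations had the lowest shares, 36.3% and 31.1%, and the fetal-open bins exceeded them by 5.95 points (3.73 to 8.18) and 10.6 points (8.12 to 13.1). The fetal-open bins thus did not exceed closed bins beyond counting error in either batch, nor adult-open bins in the first batch.

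Adult-only calls were less frequent at fetal-open bins than at closed bins in both batches. The difference was -2.26 points in the first batch (-4.23 to -0.241) and -4.03 points in the second (-6.16 to -1.82). Against bins open in adult cells only it was -2.60 points in the first batch (-5.47 to 0.269) and -4.87 points in the second (-8.02 to -1.73). Against bins open in both populations no difference was detectable, at 0.917 points in the first batch (-1.23 to 3.09) and 0.405 points in the second (-1.88 to 2.76). Contacts called in both populations made up 22.7% and 30.2% at fetal-open bins, 16.8% and 27.4% at closed bins and 29.6% and 41.3% at bins open in both.

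**Figure D1:**
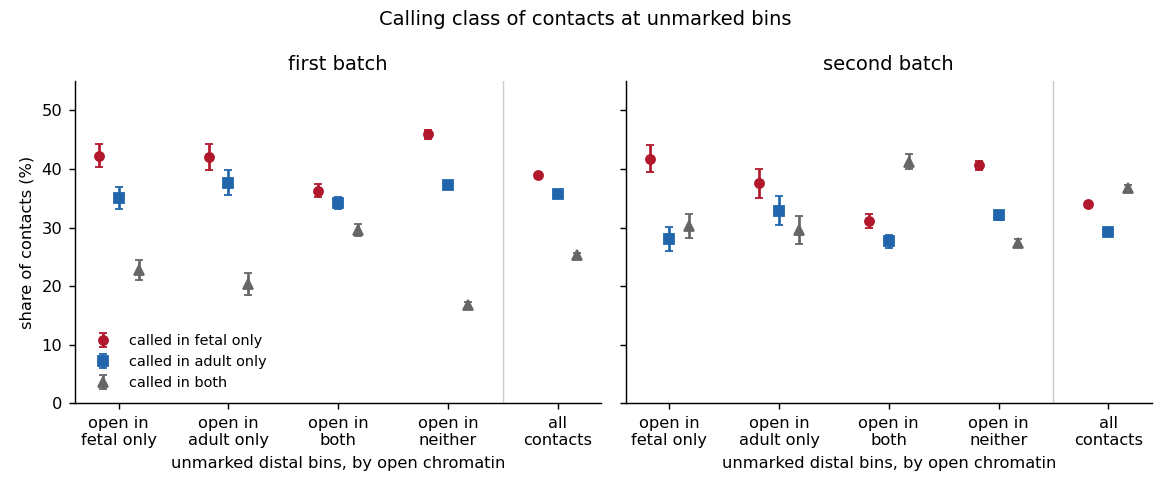
Share of contacts (%) called in fetal cells only, adult cells only or both, for unmarked bins grouped by open chromatin and for all contacts, in each batch; bars are exact 95% intervals. At bins open in fetal cells only the fetal-only share was 42.2% and 41.8%, against 42.0% and 37.5% at bins open in adult cells only and 45.9% and 40.6% at closed bins.

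The counts behind these calls were low. Over first-batch contacts the median was 9 counts in fetal and 8 in adult cells, and 948 of 2481 (38.2%) had at least 20 counts in all; in the second the medians were 27 and 22, and 1865 of 1873 (99.6%) reached 20. The second batch is thus the more precise. The log2 ratio (fetal over adult counts), after 1 was added to each and the batch's median over all contacts was subtracted, had a median of 0.05 in the first batch (order-statistic 95% interval 0.00 to 0.10) and 0.11 in the second (0.07 to 0.14). Adult-open bins had 0.02 (-0.08 to 0.08) and -0.02 (-0.07 to 0.04), bins open in both -0.02 and -0.04, and closed bins 0.08 and 0.06. The small first-batch median turned to -0.02 among contacts with at least 20 counts.

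Individual contacts spread widely around these medians. The centred ratio was at least 2-fold towards fetal cells at 454 contacts in the first batch (18.3%, against 15.5% of all contacts) and 195 in the second (10.4%, against 7.87%). It was at least 2-fold towards adult cells at 382 (15.4%, against 16.1%) and 108 (5.77%, against 7.30%). Towards fetal cells the shares were 20.2% and 10.4% at closed bins, 17.2% and 8.11% at adult-open bins and 13.5% and 6.42% at bins open in both. Towards adult cells they were 18.2% and 7.66%, 18.2% and 8.65%, and 14.9% and 7.99%. A share of this size towards fetal cells was thus not particular to fetal-open bins. Each contact at a fetal-open bin was also set against the same promoter's contacts at other kinds of bin in its distance class. The reference was their median ratio, where at least 3 existed. The promoter's mean difference was above 0 for 512 of 951 first-batch promoters (53.8%) and 428 of 737 second-batch promoters (58.1%). Its median over promoters was 0.06 (0.01 to 0.11) and 0.09 (0.06 to 0.13). Fetal-open and adult-open bins were also compared where a promoter contacted both kinds within a distance class. The mean ratio, compared within such classes and then averaged over them, was higher at fetal-open bins for 255 of 489 first-batch promoters (52.1%, 47.6 to 56.7). In the second batch this held for 213 of 375 promoters (56.8%, 51.6 to 61.9). The second-batch interval lay above an even split and the first-batch interval did not.

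The calling class varied more with distance than with open chromatin. The contacts lay at a median of 171 kb from the promoter in the first batch (165 to 177) and 87.9 kb in the second (84.0 to 90.8), close to the 172 kb and 92.1 kb of all contacts. Those called in fetal cells only lay farther out, at 203 kb and 111 kb, than those called in adult cells only, at 153 kb and 56.4 kb. In the class of 20 to 60 kb, adult-only calls took 55.2% of 154 contacts in the first batch and 54.9% of 503 in the second, and fetal-only calls 23.4% and 12.7%. In the class of 200 to 500 kb this order was turned: fetal-only calls took 53.9% of 890 contacts (50.6 to 57.2, all contacts 47.9%) and 65.8% of 234 (59.4 to 71.9, all contacts 52.6%).

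The same slope was seen at adult-open and closed bins and over all contacts, so it was not particular to fetal-open bins. The class of 60 to 200 kb held the most contacts, 1322 and 1120. There, fetal-open bins differed from adult-open bins in fetal-only calls by -0.664 points in the first batch (-4.65 to 3.29) and 6.35 points in the second (1.98 to 10.7). Against closed bins the differences at 60 to 200 kb were -5.29 (-8.01 to -2.49) and 2.33 points (-0.769 to 5.43). Within the class of 200 to 500 kb, fetal-open exceeded adult-open bins in fetal-only calls by 3.25 points in the first batch (-1.64 to 8.11) and 10.8 points in the second (1.51 to 20.0). Against closed bins the differences in this class were 0.511 (-2.96 to 3.95) and 3.24 points (-3.50 to 9.54). The adult-only share in this class was below that of closed bins, by -5.17 points in the first batch (-8.26 to -1.91) and by -6.57 points in the second (-10.8 to -1.31). At 60 to 200 kb this difference was -2.01 points in the first batch (-4.73 to 0.783) and -4.40 points in the second (-6.76 to -1.85). Weighting all contacts to the distances of the fetal-open ones left their fetal-only share at 39.0% and 33.2%. Beyond 500 kb there were 105 contacts in the first batch and 14 in the second, and under 20 kb 10 and 2, too few to describe.

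**Figure D2:**
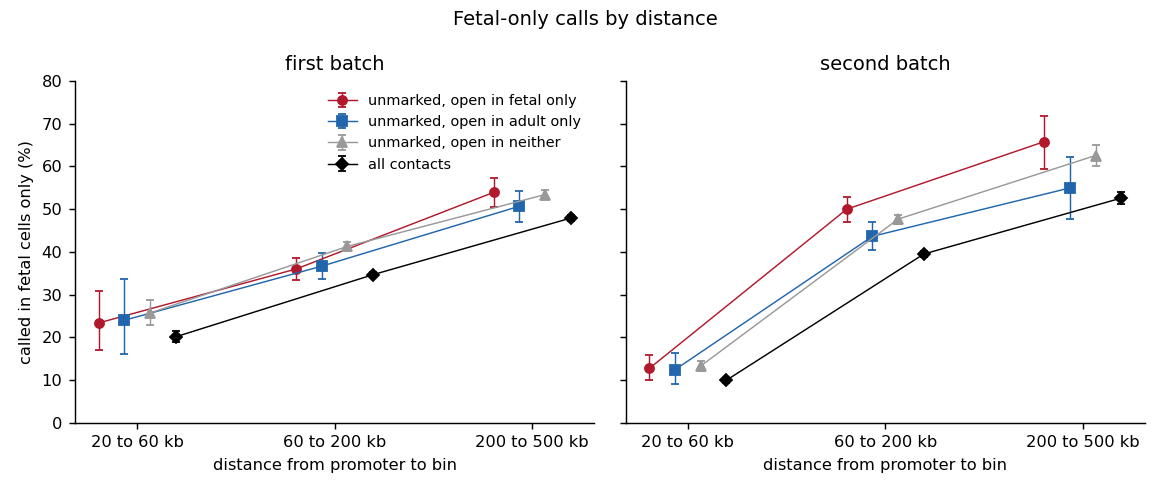
Share of contacts called in fetal cells only (%) by distance from promoter to bin, for unmarked bins open in fetal cells only, in adult cells only or in neither, and for all contacts, with exact 95% intervals; the thinly filled classes under 20 kb and over 500 kb are left out. The share at fetal-open bins rose from 23.4% at 20 to 60 kb to 53.9% at 200 to 500 kb in the first batch and from 12.7% to 65.8% in the second, and the other kinds of bin rose likewise.

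Single contacts with the strongest skew towards fetal cells, among those with at least 20 counts, are given as counts, without a test. In the first batch these were contacts of Tbcc, a tubulin-folding cofactor (21 fetal and 3 adult counts at 163 kb), Thoc6, of the THO complex that couples transcription to mRNA export (24 and 4 at 93.9 kb), Slc22a3, an organic cation transporter (23 and 4 at 47.8 kb), and Ankrd12 (17 and 3 at 221 kb). All of these were called in fetal cells only. In the second batch they were contacts of Hp, the haptoglobin gene (20 and 1 at 102 kb), Coq7, of ubiquinone synthesis (21 and 2 at 121 kb), Btg1, an antiproliferative factor (18 and 2 at 281 kb), Akap9, a scaffold for protein kinase A (18 and 2 at 111 kb), and Pop1, of ribonuclease P (18 and 2 at 84.0 kb). With 1 to 4 adult counts each, these ratios are imprecise.

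At the opposite end stood bins closed in adult cells by ATAC and yet touched mainly there. In the first batch these were contacts of an alternative promoter of Hlf, a bZIP factor of HSC identity (3 fetal and 20 adult counts at 232 kb), of Col16a1 (3 and 19 at 63.3 kb), of Fadd, the adaptor of death receptors (5 and 28 at 331 kb), of Asb4 (4 and 17 at 114 kb), and of Cd93, a surface receptor of early haematopoietic and endothelial cells (6 and 24 at 39.8 kb). In the second batch they were contacts of Il1rap, the interleukin-1 co-receptor (3 and 18 at 129 kb), Napg (3 and 18 at 204 kb), Nars, a transfer RNA synthetase (4 and 17 at 457 kb), Inpp5a, an inositol phosphatase (7 and 26 at 104 kb), and Oxr1 (5 and 19 at 288 kb). The Hlf bin, on chromosome 11 from 90484001 to 90486001 in mm9, was not skewed from another Hlf promoter fragment, which had 12 fetal and 10 adult counts there and was called in both.

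The highest scores belonged to contacts with many counts in both populations. Rpl37a, a ribosomal protein gene, had 1291 fetal and 375 adult counts at 71.0 kb, called in both; ribosomal protein genes have many processed copies, and how reads that map to several places were treated is not given in the sources used here. Sp140, of the speckled protein family, had 149 and 164 at 2413 kb, and Snrpe, a core splicing protein, 94 and 76 at 223 kb. In the second batch Phf1, a Polycomb-associated reader of methylated histone H3, had 193 and 171 at 6943 kb, Eya3, a phosphatase and co-activator, 136 and 72 at 86.1 kb, Fam136a 85 and 85 at 237 kb, and the long noncoding RNA gene Neat1 82 and 108 at 44.4 kb. Apart from Rpl37a, these contacts differed by less than 2-fold in counts between fetal cells and adult cells, where the bin was closed. The counts of Sp140 at 2413 kb and Phf1 at 6943 kb stood far above the batch medians of 9 and 8, and 27 and 22. Whether reads that map to several places added to them was not tested.

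**Figure D3:**
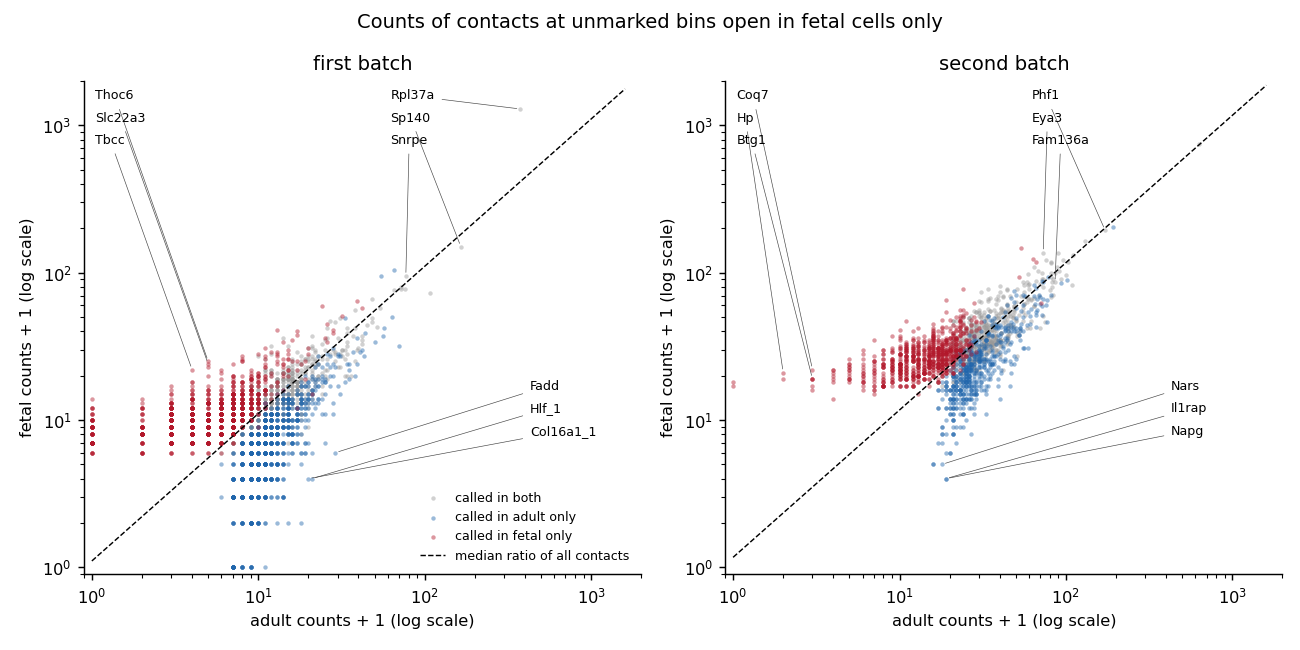
Fetal against adult counts (each plus 1, log scales) of every contact at unmarked bins open in fetal cells only, coloured by calling class, with the 3 contacts of the highest ratio, the lowest ratio (with at least 20 counts) and the highest fetal score in each batch named; the dashed line is the median ratio over all contacts of the batch. The cloud lies on both sides of the line in both batches, around medians of 9 and 8 (first batch) and 27 and 22 (second batch).

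Some promoters gathered many such bins. Gmfg, the haematopoietic member of the glia maturation factor family, had the most, 13 of its 93 contacts, all on 1 side between 82.7 and 273 kb: 3 were called in fetal cells only, 3 in adult cells only and 7 in both, with 204 fetal and 162 adult counts in all. Tra2b, a splicing regulator, had 11 contacts from its numbered alternative promoter (6 fetal only and 5 adult only, 75 and 54 counts). Its bin from 22162001 to 22164001 on chromosome 16 overlapped the Igf2bp2 promoter fragment, which was captured in the second batch. Ino80e, a subunit of the INO80 chromatin remodeller, had 10, of which 0 were called in fetal cells only, 5 in adult cells only and 5 in both (217 and 254 counts). Several other promoters were tied with it at 10. The promoters richest in fetal-open bins thus did not share a direction. At Gmfg, Tra2b and Ino80e expression differed by less than 2-fold. Gmfg, for example, had 95 FPKM (an expression unit scaled for transcript length and library depth) in fetal and 82.3 in adult cells.

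Tax1bp1, an adaptor of selective autophagy, had 12 contacts and was expressed at 19.4 FPKM in fetal and 53.8 in adult cells. Of its bins, 7 lay 431 to 485 kb away on chromosome 6 in mm9, from 52178001 to 52234001, next to the captured promoters of Hoxa9 and Hoxa10, homeobox genes of HSC self-renewal. The bin from 52180001 to 52182001 lay over the captured Hoxa9 fragment. These 7 contacts had 6 and 14, 11 and 12, 5 and 6, 2 and 7, 9 and 6, 6 and 6, and 9 and 3 fetal and adult counts in order along the chromosome. Fetal counts were the lower at the end next to Hoxa9 and the higher at the far end, with few counts at each bin.

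In the second batch Sh3pxd2a, a scaffold protein of podosomes, Rpusd2, Nek2 and Lima1, an actin cross-linker, had 9 contacts each. Sh3pxd2a had 1 called in fetal cells only, 1 in adult cells only and 7 in both, all between 49.9 and 140 kb, with 537 fetal and 378 adult counts, and 0.560 and 1.45 FPKM. Nek2 had 5, 1 and 3, with 273 and 188 counts, and 6.06 and 3.60 FPKM. Its median centred log2 ratio over the 9 bins was 0.39. Lima1 had 5, 3 and 1, with 196 and 162 counts, and 1.37 and 2.48 FPKM. Eya3, with 8 contacts, had 1, 3 and 4, with 396 and 308 counts, and 6.06 and 3.92 FPKM.

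Rpusd2 reached a run of 6 adjoining bins on chromosome 2 in mm9, from 118988001 to 119000001, at 128 to 138 kb. The bin from 118992001 to 118994001 lay over the captured Gchfr promoter fragment. Along the run, bin midpoints lay 0.288 to 5.71 kb from the midpoint of that fragment. All 6 were called in both populations, with 24 to 43 fetal and 25 to 45 adult counts. Their centred log2 ratios were -0.10, -0.34, -0.46, -0.08, 0.07 and 0.15, so that 4 of the 6 bins of this stretch leaned towards adult cells relative to the batch's median contact. Its other 3 bins lay 75.8, 122 and 176 kb away, with 27 and 12, 25 and 18, and 26 and 26 fetal and adult counts, and the nearer pair were called in fetal cells only.

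Of the 3516 bins, 2874 were reached by 1 captured fragment, 501 by 2 and 141 by 3 or more, and 294 were reached in both batches. The class of a bin often differed between promoters. Among 642 bins reached by at least 2 fragments, 194 had the same class for all of them, and 185 were called in fetal cells only from one promoter and in adult cells only from another. How much of this disagreement counting noise or the batches' unequal score thresholds would give was not tested. The matching shares over other kinds of shared bin were not computed, so the disagreement is not shown to be particular to fetal-open bins. The most shared bin, on chromosome 11 from 101026001 to 101028001, was reached by 7 fragments: Becn1 of autophagy (14 fetal and 13 adult counts), a pair of Ramp2 promoters (16 and 11, 18 and 14), Stat5b (5 and 8), Ccdc56 (26 and 10), Ezh1, a Polycomb methyltransferase (30 and 16), and Tubg1, gamma-tubulin (28 and 23). Of these 7 contacts 3 were called in fetal cells only, 2 in adult cells only and 2 in both. A bin on chromosome 10 from 79482001 to 79484001 was reached by 6 fragments of Stk11, Cirbp and Mbd3, with 11 to 35 fetal and 6 to 37 adult counts.

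One shared bin lay in the imprinted region of H19, a noncoding RNA gene, and Igf2, a fetal growth factor, on chromosome 7 from 149502001 to 149504001. It was reached by both H19 promoter fragments (13 fetal and 6 adult counts, 12 and 12), an Igf2 fragment (4 and 8), Mrpl23 (10 and 7), Lsp1, a leukocyte actin-binding protein (42 and 17), and Tnni2, a troponin (46 and 22). Both fragments of the more deeply counted second batch, Lsp1 and Tnni2, had over 2 fetal counts for each adult count. H19 was expressed at 168 FPKM in fetal and 1.63 in adult cells, and Igf2 at 20.6 and 0.536. Lsp1, at 39.8 and 22.3 FPKM, differed by less than 2-fold. The Igf2 fragment, from a gene expressed far higher in fetal cells, had the fewest fetal counts of the 6 at this bin. The adjoining bin from 149500001 to 149502001 was reached by 5 fragments, Lsp1 and Tnni2 among them, with 77 fetal and 92 adult counts. Of those 5 contacts 1 was called in fetal cells only, 3 in adult cells only and 1 in both. The fetal skew of the first bin was thus not seen at its neighbour.

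The batches shared 19 captured fragments, which had 17 of these contacts in the first batch and 14 in the second. Of them, 7 were the same contact in both batches, of which 6 had the same class and 5 had a centred ratio on the same side. Contacts listed in 1 batch only do not enter this comparison. Glod4 gave 4 of the 7, with 14 and 15, 17 and 15, 15 and 10, and 15 and 8 fetal and adult counts, and on the repeat capture 26 and 22, 31 and 29, 32 and 21, and 27 and 22. Ndufaf2, an assembly factor of mitochondrial complex I, was called in adult cells only both times (6 and 10, then 14 and 28). The contact of 5033414D02Rik likewise was called in adult cells only both times (8 and 10, then 17 and 25), and that of Nsa2, of ribosome assembly, in both populations (8 and 8, then 17 and 16). This is the only repeat of single contacts that the table allows.

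Expression of the target genes was taken from the FPKM values in the authors' deposited table, 1 per population. Promoters with a contact at a fetal-open bin of the first batch had medians of 8.36 FPKM in fetal and 9.97 in adult cells, against 8.55 and 10.0 over all captured promoters. For the second batch they were 3.20 and 3.81, against 2.81 and 3.54. At least 2-fold higher values of FPKM plus 1 in fetal cells were found at 57 of 1031 (5.53%, against 5.11% of all captured promoters) and 100 of 804 (12.4%, against 11.3%). At least 2-fold higher values in adult cells were found at 129 (12.5%, against 13.4%) and 123 (15.3%, against 16.2%). These shares lay near those of all captured promoters.

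The authors marked some promoters as differentially expressed, which covered every promoter of the second batch. Among those with a fetal-open bin, 181 of 363 in the first batch were higher in fetal cells (49.9%, 44.6 to 55.1), against 125 of 328 among those without (38.1%, 32.8 to 43.6). In the second batch it was 404 of 804 (50.2%, 46.7 to 53.8) against 428 of 1010 (42.4%, 39.3 to 45.5). With at least 3 such bins the shares were 57.8% (48.8 to 66.5) and 56.3% (50.3 to 62.2). The number of contacts moved with this result: promoters with a fetal-open bin had a median of 32 and 30 contacts, and those without 8 and 7. Among promoters with at least 20 contacts the shares were 56.0% (49.6 to 62.2) with and 49.2% (35.9 to 62.5) without such a bin in the first batch, and 52.4% (48.3 to 56.6) and 48.2% (41.1 to 55.4) in the second, with overlapping intervals. Promoters with fetal-open and no adult-open bins had 44.9% and 49.1%, and those with adult-open and no fetal-open bins 36.6% and 44.3%, again with overlapping intervals.

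At fetal-open bins no difference in calling class by the target's expression was detectable. Where the target was at least 2-fold higher in fetal cells, 38.5% of 143 contacts in the first batch (30.5 to 47.0) and 42.2% of 223 in the second (35.6 to 48.9) were called in fetal cells only. Where it was at least 2-fold higher in adult cells the shares were 41.0% of 278 (35.2 to 47.0) and 39.4% of 264 (33.5 to 45.6). The intervals overlapped in both batches. Over all contacts the shares were 40.9% and 35.8% for targets higher in fetal cells and 38.9% (37.6 to 40.1) and 32.4% (31.2 to 33.6) for targets higher in adult cells, with intervals of 39.0 to 42.8 and 34.4 to 37.2 for the former.

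**Figure D4:**
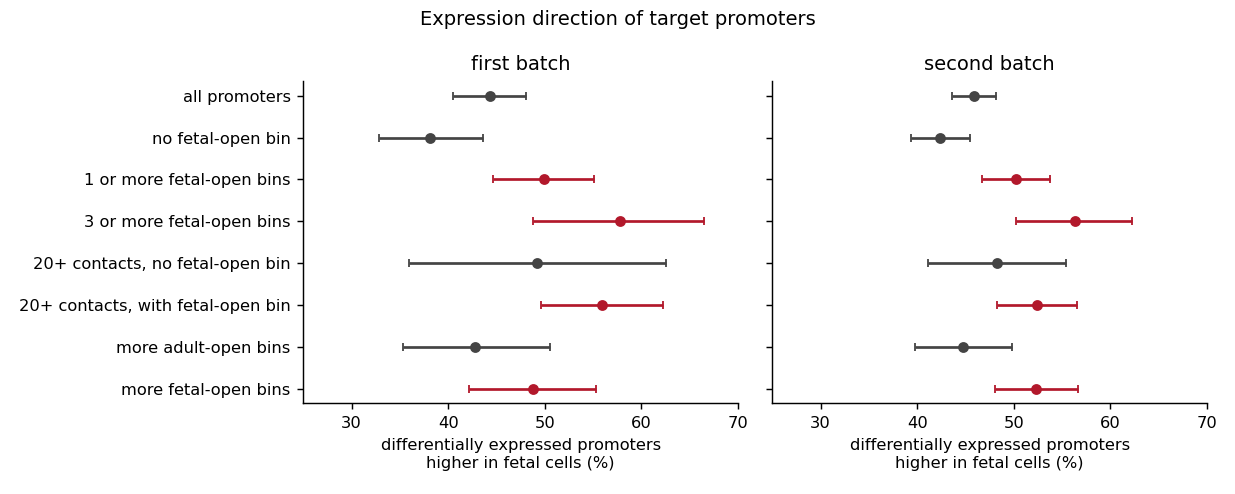
Share of the promoters marked as differentially expressed that were higher in fetal cells (%), for promoters grouped by their contacts with unmarked bins open in fetal cells only (red) and for the groups they are set against (grey), with exact 95% intervals. Promoters with a fetal-open bin had 49.9% and 50.2%, those without 38.1% and 42.4%, and the intervals of promoters with at least 20 contacts overlapped.

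Regulators of HSCs were followed through lists of genes. Of 12 genes of the fetal HSC program 10 were captured, and 4 had 20 of these contacts, with 9 called in fetal cells only, 6 in adult cells only and 5 in both (fetal only 45%, against 41.2% of all contacts of these genes). Their median centred log2 count ratio was 0.41, where that of all contacts of a batch is 0 by construction. Most of the 20 came from the imprinted region of H19 and Igf2: 2 and 6 from H19 fragments and 1 and 5 from Igf2 fragments. Some of those bins were counted from several fragments, so the list's values rest largely on that region. Sox17, a factor needed by fetal HSCs, had 16 fetal and 14 adult counts at 75.6 kb and 8 and 3 at 206 kb, but was listed at 0.0202 FPKM in fetal cells and 0 in adult cells. Plagl1, an imprinted zinc finger gene, had 4 contacts, 2 from each of 2 promoters, with 12 fetal and 3 adult counts from one and 13 and 17 from the other. Igf2 had 19 and 6, and 10 and 2 counts at adjoining bins 142 and 140 kb away, and 0 and 8 at a bin 358 kb away. The H19 promoter fragments and Igf2 together thus held skews in both directions. Lin28b, Hmga2, Arid3a and the 3 Igf2bp genes, all captured, had no contact at a fetal-open unmarked bin, but with only 2 to 18 contacts each the absence cannot be told from the share of 5.32% over the whole list.

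Of 23 regulators of both stages 21 were captured, and 14 had 37 contacts, with 16 called in fetal cells only, 11 in adult cells only and 10 in both (fetal only 43.2%, against 35.2% of all contacts of these genes, median centred log2 ratio 0.10). Runx1, a master factor of blood development, had 8, the most, with 5 called in fetal cells only, 1 in adult cells only and 2 in both. Its counts at these bins were 11 and 8, 18 and 10, 14 and 3, 15 and 10, 11 and 9, 11 and 5, 2 and 13, and 12 and 13 in fetal and adult cells. The centred ratio leaned towards fetal cells at 6 of the 8 bins, while Runx1 itself was expressed at 7.76 FPKM in fetal and 11.8 in adult cells. Ikzf1, a lymphoid and stem cell factor, had 4 (56 and 41 counts), Gata2 3 (31 and 29) and Myb 3 (34 and 25). Tcf3, the E-protein whose knockout the series also includes in a cell line, had 2, both called in adult cells only (11 and 14, 7 and 15), at 39.0 FPKM in fetal and 21.3 in adult cells. Tal1 had 17 and 6 counts at 77.1 kb.

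Of 10 adult HSC regulators 8 were captured, and 5 had 19 contacts, 6 called in fetal cells only, 8 in adult cells only and 5 in both (fetal only 31.6%, against 28.5% of all contacts of these genes), at a median centred log2 ratio of -0.14. Cdkn1a, the p21 cell cycle inhibitor, gave 12 of them from 3 promoter fragments. The bin at 29292001 to 29294001 on chromosome 17 had 11 fetal and 18 adult counts from one fragment, called in adult cells only, and 25 and 10 from another, called in fetal cells only. Gfi1, a repressor that limits HSC cycling, had 3, of which its alternative promoter gave 8 and 18 counts at 110 kb and 11 and 2 at 166 kb, while its expression was 10.1 FPKM in fetal and 1.38 in adult cells. Egr1, a factor of HSC quiescence, had 7 and 1 counts at 604 kb, at 0.702 FPKM in fetal and 25.3 in adult cells. For Egr1 the contact and the expression thus pointed opposite ways, on 8 counts.

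Of 36 cell cycle genes 20 were captured, and 10 had 24 contacts, with 10 called in fetal cells only, 7 in adult cells only and 7 in both (41.7% fetal only, against 33.1% of all contacts of these genes, median centred log2 ratio 0.04). Bub1b of the spindle checkpoint had 4 (98 fetal and 73 adult counts), and Mcm2, a subunit of the replicative helicase, 4 (127 and 87). Bub1b had 30 and 10 counts at 147 kb and 25 and 10 at 135 kb, but 19 and 29 at 86.8 kb. Mcm2 had 47 and 17 at 50.1 kb and 26 and 9 at 340 kb, but 33 and 38 at 62.1 kb. Both genes were higher in fetal cells, at 18.1 against 7.35 and 53.4 against 31.3 FPKM, and each had bins with more adult than fetal counts.

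Most captured markers of other cells that a fetal liver sort could hold differed between the populations, although the Lin- Sca1+ cKit+ gate is meant to remove mature cells of these lineages. Over all captured promoters, 5.11% of the first batch and 11.3% of the second were at least 2-fold higher in fetal cells. Of 10 captured macrophage and myeloid markers 9 were at least 2-fold higher in fetal cells, and their summed level was 119 FPKM in fetal and 6.32 in adult cells. In bulk samples, more cells of a type and more RNA per cell cannot be told apart. These genes had 21 contacts at fetal-open unmarked bins, with 9 called in fetal cells only, 8 in adult cells only and 4 in both (fetal only 42.9%, against 46.8% of all contacts of these genes), at a median centred log2 ratio of -0.03. Csf1r, the macrophage growth factor receptor, at 5.67 FPKM in fetal and 0.039 in adult cells, had 4, of which 3 were called in adult cells only and 1 in both (32 fetal and 50 adult counts). Marco, a scavenger receptor, had 2, both called in fetal cells only (6 and 3, 8 and 3). Of 10 captured erythroid markers 8 were at least 2-fold higher in fetal cells, and 6 had 10 contacts. The summed levels of 190 and 174 FPKM were dominated in adult cells by Car2, which went the other way (74.7 fetal and 148 adult FPKM). Klf1, the erythroid master factor, had 31 and 17, and 48 and 37 counts, at 24.0 and 2.40 FPKM. The 1 hepatic marker captured of 11, Dlk1, had 31.9 and 0.942 FPKM and 4 contacts (149 and 110 counts). All 4 captured megakaryocyte markers were at least 2-fold higher in adult cells, with summed levels of 24.1 and 174 FPKM, and had 2 contacts. No captured marker of these lists was listed at 0 FPKM in either population, and none of 9 lymphoid markers was captured. Whether other cells gave part of the open sites or contacts was not tested. Of the markers of the sorted cells, Kit was listed at 32.8 FPKM in fetal and 50.5 in adult cells and Procr at 10.4 and 8.94. Flt3, which encodes CD135, was listed at 6.20 FPKM in fetal and 3.81 in adult cells although the Capture-C cells were sorted as CD135-. The labels used here are those of Capture-C libraries and do not describe the cells that gave the FPKM values.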

How the data were processed

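Fetal and adult HSC libraries were compared from 1 table that the authors deposited. Its columns hold whole-number counts per contact, a score that behaves as −log10 of a p-value (deposited by the authors, scale inferred from the values: 0 where not called, otherwise at least 1.3 for first-batch and 2.0 for second-batch contacts), FPKM per promoter by the authors, and other 0 or 1 annotations that the authors deposited without stating how they were made. Per the submitters' processing notes, Trim Galore 0.41, Bowtie2 2.2.2 and build mm9 were used, with roles not given. All columns of values belonged to a population, leaving 0 unassigned. The batches held 892529 fetal and 759999 adult counts, and 2014162 and 1813689, within chromosomes.

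A contact was called where its score was above 0. Count ratios were log2 with a pseudocount of 1, centred on the batch's median, and FPKM ratios were log2 with a pseudocount of 1, which understates changes of low genes. Shares carry Clopper-Pearson intervals, differences Newcombe intervals and medians order-statistic intervals, all at 95% and covering counting error or spread over contacts only. Values are pooled over libraries, so there is no test. Named contacts were the 5 highest and 5 lowest count ratios among those with at least 20 counts and the 3 highest scores per population and batch; named promoters the 5 with most contacts per batch; named bins the 5 with most fragments; and list genes with a contact, of which part are reported; some items that this rule names are not reported here. Gene names were matched to RefSeq for 3028 of 3352 genes by symbol and 3326 with synonyms. The motif shares rest on fewer captured genes, 1255 of 1565 in the first batch and 1453 of 1787 in the second. The bins, lists and comparisons were chosen with earlier results of these data known. Alternatives covered the score, distance, counting of bins, neighbouring marks, low counts, scaling and pseudocounts. Statistics were checked on simulated data. Python 3.11.15, pandas 2.3.3, numpy 2.4.6, scipy 1.17.1 and matplotlib 3.10.9 were used.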

Additional observations from a re-analysis of the deposited data

Results flagged for a closer look

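Contacts outside the main measurement also met the same conditions on the bin: 72 of 1070 contacts between chromosomes (6.73%) joined 61 promoters to unmarked bins open in fetal cells only, where the share within chromosomes was 4.92%. The limit that a count of 0 allows, 0.280%, is passed by any handful of contacts and tests nothing about these bins. Of the 72, 21 were called in fetal cells only, 10 in adult cells only and 41 in both (29.2%, 13.9% and 56.9%, against 28.6%, 10.5% and 60.9% of all contacts between chromosomes), with medians of 29 fetal and 22.5 adult counts.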

How the results depend on the processing

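No paired analysis was possible because each population has 1 pooled value per batch, and leaving out a library was not run for the same reason. Without bins that have a marked bin within 4 kb, the share called in fetal cells only was 44.6% in the first batch (all such contacts 45.5%) and 45.2% in the second (42.0%). In that setting the first-batch median centred log2 ratio was 0.00 and its median distance 181 kb. With at least 20 counts, which 38.2% of first-batch contacts had, the first-batch share was 22.3% (all 20.8%), the ratio -0.017 and the distance 105 kb. Scaling by total counts gave a ratio of -0.039 (all contacts -0.088) and 0.186 (0.075) and no centring 0.193 (0.144) and 0.337 (0.227); both shift all contacts alike and leave the gap to all contacts as it was. Merging neighbouring bins gave 0.043 (second batch), and its shares, 43.0% (all 41.8%) and 42.9% (40.6%), cut the excess over all contacts from 3.25 to 1.17 points and from 7.79 to 2.24. Among promoters marked as differentially expressed, a setting chosen after seeing the data, the first-batch share was 45% (all contacts 39.2%). The median log2 FPKM ratio was 0.01 for first-batch promoters (all captured -0.037) and 0.34 for second-batch promoters (-0.52 to 0.52, all captured -0.536). Every second-batch promoter was marked as differentially expressed and 50.2% of these were higher in fetal cells, so that median is unstable. It became -0.036 (first batch, all -0.116) at 1 FPKM or more and 0.587 (second batch, all -0.817) with a pseudocount of 0.1. For promoters with 3 or more such bins, also chosen after seeing the data, it was 0.093 and 0.545. The cause of the other shifts was not tested. Under the other settings run, the members' own values moved by less than their intervals. With p-values 10 times smaller, however, the share of all contacts called in fetal cells only fell to 35.6% and 32.6%. The members' shares were then 42.9% and 41.7%. Their excess thus rose from 3.25 to 7.26 points in the first batch and from 7.79 to 9.08 in the second. In the first batch, low counts limit the precision.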
